A study of Mus musculus with 6 samples.

Results

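The families described here are the entries of a mouse repeat table whose name contains IAP in any letter case and does not start with IAPEY. There were 22 of them among 363 repeat families, and 10 further entries whose names start with IAPEY were set apart. By name, 6 of the 22 were internal regions, 14 were long terminal repeats (LTRs) and 2 (IAPA_MM and IAP-d) gave no class. One member, LTRIAPEY, points to IAPEY by name although it does not start with it, and it was kept because the rule is literal. The table came from RNA sequencing of mouse testis at postnatal day 20, with 3 wild-type libraries and 3 libraries from Spocd1ΔSPIN1 mice. The labels give the mutant genotype as Spocd1 dSpin/dSpin, and both groups share a strain listed as mixed B6CBAF1/Crl; C57BL/6N. In the ΔSPIN1 allele, residues of a β-hairpin through which SPOCD1 binds the chromatin reader SPIN1 are replaced by alanine, and the line goes back to a single founder animal. The comparison asks whether IAP transcripts differ when SPOCD1 cannot bind SPIN1. Total RNA was taken from a whole testis for each library and depleted of ribosomal RNA, so fewer cells of a type and less RNA per cell cannot be told apart. The table lists no gene, so neither the tissue nor the genotype could be checked against a marker.

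Intracisternal A particle (IAP) elements are endogenous retroviruses of the mouse genome, and some of them still move. A full copy carries an internal region, which encodes the retroviral proteins, between a pair of LTRs, which hold the promoter and the signal that ends the transcript, while many copies have lost the internal region and remain as a solitary LTR. In the male germline, piRNAs guide DNA methylation to young retrotransposons before birth through nuclear factors that include MIWI2 and SPOCD1, and IAPEz and LINE1 elements are among those known to be silenced by methylation.

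The 3 wild-type libraries held 416517, 369598 and 499166 counts over all repeat families, and the 3 Spocd1ΔSPIN1 libraries held 842018, 1013224 and 918487. Of these, 29757, 29891 and 40619 counts in the wild type and 34773, 37024 and 30657 in the mutant fell on the 22 IAP families. The mutant totals were above every wild-type total, whereas the IAP counts of the groups overlapped. Levels are given as counts per 1000000 counts (CPM) after scaling with TMM, which rests on the bulk of the families and not on the total. A total is sensitive to a few very abundant families: L1MdTf_I, a family of the active LINE1 group L1MdTf, held 7283, 6315 and 9354 counts in the wild type and 111320, 87087 and 88709 in the mutant.

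The scaling sets the zero of every fold change. With TMM the median log2 fold change (Spocd1ΔSPIN1 over wild type) of the 292 families that passed the filter on low counts was −0.04, and with total counts it was −1.05. For the IAP families, the change from TMM to total counts lowered each log2 fold change by nearly the same amount, and all 22 then lay below 0. The fall was smallest for IAPLTR3_I (from −1.325 to −2.332) and largest for IAP1-MM_I (from 0.319 to −0.699). Relative to the median of all families tested, each of the 22 kept its sign with TMM, with 5 other scalings in edgeR and with DESeq2. Directions below are therefore relative to that median.

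The log2 fold changes of the IAP families lay on both sides of the median of all families tested, for internal and for LTR entries, and most did not pass the test. Among the most abundant entries the log2 fold change was 0.09 for IAPLTR1a_I_MM, 0.30 for IAPEZI and −1.33 for IAPLTR3_I. It was 3.57 for L1MdTf_I, which ranked 3 among 46 LINE1 families. With edgeR, 1 of the 22 families passed a Bonferroni-adjusted p of 0.05, against 8.22% of all 292 families tested, a share no higher than the background by this rule. That family was IAP5-Mm_I, an internal region, which rose relative to the median of all families (1 of 22 higher, against 5.48% of all families). No member fell by this test (0 of 22, against 2.74% of all families). With DESeq2, 1 of 22 was lower, against 17 of all 292 families. With total counts edgeR called 0 members higher and 11 lower, against 4 higher and 168 lower of all 292 families (58.9% in either direction). With the total outside LINE1 families, chosen after seeing the data, it called 0 members higher and 3 lower. Of all 292 families it called 14 higher and 32 lower (15.8% in either direction). At an unadjusted edgeR p below 0.05 there were 14 of the 22, 10 higher and 4 lower, against 42.5% of all families (21.2% in each direction), so by this less strict rule the share of members called was above the background among higher families (45.5%) and not among lower ones (18.2%). All 22 families passed the filter on low counts.

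The genotypes did not overlap for 15 of the 22 families, 11 higher and 4 lower in the mutant, against 45.9% of all families tested (20.9% higher and 25% lower). These are 50% of the members higher and 18.2% lower. With the Benjamini-Hochberg adjustment, edgeR called 12 of the 22, of which 8 were higher and 4 lower relative to the median, against 31.5% of all families (15.4% higher and 16.1% lower). The members' share was thus above the background by the less strict rules, through the higher families, and near or below it by Bonferroni in edgeR and DESeq2 (4 of 22, against 16.1% of all families). The median log2 fold change of the 22 families was 0.21, which lies 0.25 above the median of all families tested, and the values ranged from −1.33 to 0.92. For comparison, the median was 0.44 in the 10 IAPEY families, 0.19 in 46 LINE1 families, −0.11 in 10 MMERVK10 and RLTR10 families and −0.16 in 162 other LTR-type families.

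**Figure D1:**
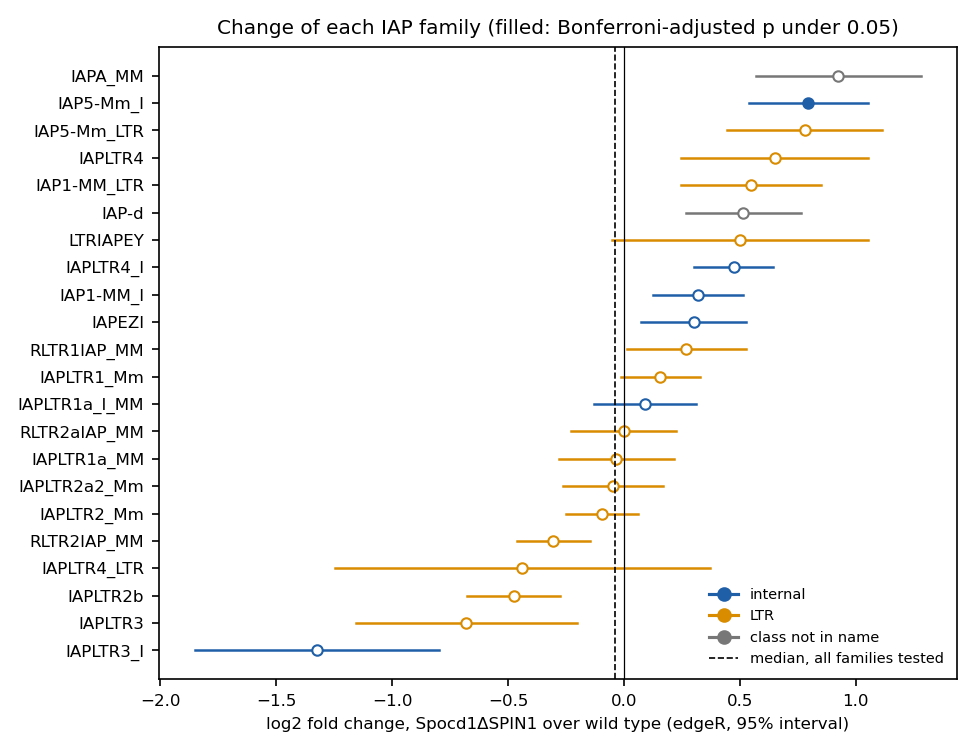
Log2 fold change (Spocd1ΔSPIN1 over wild type, edgeR with TMM scaling, 3 libraries per genotype) on the x axis for each of the 22 IAP families, with 95% confidence intervals as lines; color gives the class by name and the dashed line the median of all families tested. IAPLTR3_I lies farthest to the left at −1.33 and IAPA_MM farthest to the right at 0.92; with total counts every point lies below 0, at nearly the same distance from the median.

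Among the 6 internal entries, 5 lay above the median of all families and IAPLTR3_I lay below it. The internal entries had a median log2 fold change of 0.31, or 0.35 relative to all families. By the Bonferroni threshold in edgeR, 1 of the 6 passed, against 8.22% of all families. With DESeq2 the internal entries IAP5-Mm_I, IAPLTR3_I and IAPLTR4_I passed it, against 16.1% of all families. With Benjamini-Hochberg adjustment 4 of the 6 passed in edgeR, against 31.5% of all families, and for 5 of the 6 the genotypes did not overlap, against 45.9%. IAPLTR1a_I_MM, the internal region of the IAPLTR1a group, had the highest mean level per length of the 22 in each genotype, at 2600.1 ± 75.2 CPM per kb in the wild type and 2769 ± 222 CPM per kb in the mutant (SD, n = 3). The next in order were the LTR IAPLTR3 in the wild type (2496 ± 502 CPM per kb), which did not differ from it beyond the spread, and IAPEZI in the mutant (2558 ± 234 CPM per kb). IAPLTR1a_I_MM measured 16312, 17261 and 16981 CPM in the wild type and 19542, 16739.6 and 17564 CPM in Spocd1ΔSPIN1. The groups overlapped, with only mutant replicate 1 well above the wild-type libraries. Its log2 fold change was 0.09 (SE 0.09; 95% confidence interval −0.13 to 0.31), so the difference was within the spread of the replicates. Total counts put it at −0.92 and the total outside LINE1 families, a scaling chosen after seeing the data, at −0.21, each 0.13 above the median of all families.

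IAPEZI, the internal region of the IAPEz group, which includes copies that still insert, had 2077 ± 76.9 CPM per kb in the wild type. Its level was 12702, 13602 and 13494 CPM in the wild type and 18014.8, 15132 and 15871 CPM in the mutant. Every mutant library was above every wild-type library, and replicate 1 was the highest. The mean was 13266 ± 491 CPM (SD, n = 3) in the wild type and 16339 ± 1498 CPM in the mutant, a 1.23-fold difference. In edgeR the log2 fold change was 0.30 (SE 0.10; 95% confidence interval 0.07 to 0.53), with an adjusted p of 1 by Bonferroni and 0.0503 by Benjamini-Hochberg, so it passed neither threshold. IAPEZI was below 0 at −0.71 with total counts and at −0.0046 with the total outside LINE1 families. The interval with TMM scaling ends far below the log2 fold change of L1MdTf_I, 3.57, in the same libraries. L1MdTf_I ranked 3 among 46 LINE1 families, however, and the median of those families, 0.19, lies inside the interval.

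IAPLTR3_I, the internal region of the IAPLTR3 group, had the largest difference of the 22 in either direction. It measured 10251, 17034 and 14719 CPM in the wild type and 4999.9, 7158 and 4600.5 CPM in Spocd1ΔSPIN1. The highest mutant library was below the lowest wild-type library, and the replicates of each genotype varied more than those of the other abundant internal entries. The mean went from 14002 ± 3448 CPM (SD, n = 3) in the wild type to 5586 ± 1376 CPM in the mutant, 2.51 times lower. In edgeR the log2 fold change was −1.33 (SE 0.23; 95% confidence interval −1.85 to −0.80) with a Bonferroni-adjusted p of 0.128 and a Benjamini-Hochberg-adjusted p of 0.00359. With DESeq2 the log2 fold change was −1.29 and the Bonferroni-adjusted p was 4.6e-05, past the threshold. It lay below 0 with all the scalings tried.

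IAP5-Mm_I, the internal region of the IAP5 group, measured 937, 833 and 884 CPM in the wild type and 1621, 1695 and 1293 CPM in the mutant. Every mutant library was above every wild-type library, with replicate 3 the lowest of the mutants. Its mean was 884 ± 52.0 CPM (SD, n = 3) in the wild type and 1536 ± 214 CPM in the mutant, and it rose 1.74-fold (edgeR log2 fold change 0.80, SE 0.11, 95% confidence interval 0.54 to 1.05, Bonferroni-adjusted p = 0.0321), or by 0.84 relative to the median of all families, although with total counts the log2 fold change itself was −0.21. When each of the 6 libraries was left out in turn, the Bonferroni-adjusted p in edgeR was between 0.005 and 0.326. It was below the threshold without mutant replicate 3 and above it without any of the other 5. With replicate number as a block it was 0.189. The log2 fold change stayed about as large, 0.72 to 0.93 with a library left out and 0.79 with the block.

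IAPLTR4_I measured 2317, 2463 and 2491 CPM in the wild type and 3614, 3307 and 3169 CPM in the mutant. The groups did not overlap, and the libraries of each genotype lay close together. The edgeR log2 fold change was 0.47 (SE 0.07; 95% confidence interval 0.30 to 0.64; −0.54 with total counts), with a Bonferroni-adjusted p of 0.0658 in edgeR and of 0.000131 in DESeq2. IAP1-MM_I, the shortest internal entry at 3853 bases, measured 879.9, 955 and 924 CPM in the wild type and 1045, 1142 and 1254 CPM in the mutant. These groups did not overlap either, and the log2 fold change was 0.32 (SE 0.08; −0.70 with total counts), with a Bonferroni-adjusted p of 1 and a Benjamini-Hochberg-adjusted p of 0.0227 in edgeR.

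**Figure D2:**
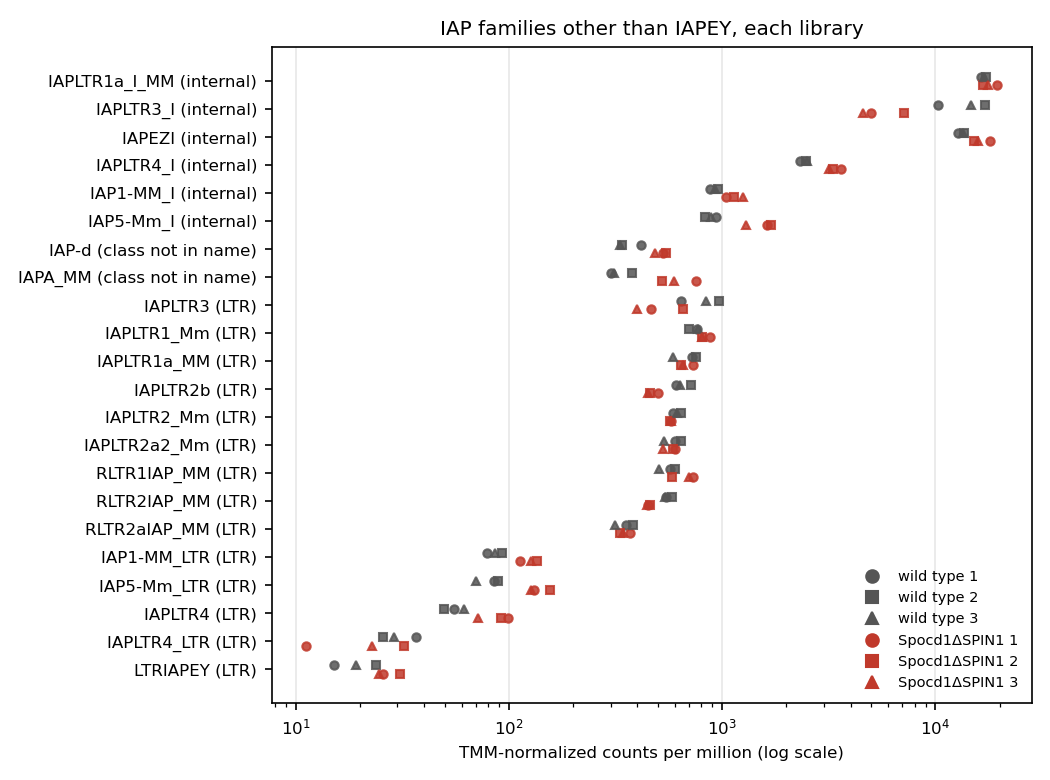
TMM-scaled CPM on a logarithmic x axis for each of the 22 IAP families, 1 point per library, with 3 wild-type libraries in grey and 3 Spocd1ΔSPIN1 libraries in red. The IAPLTR3_I points separate by genotype, from 10251 to 17034 in the wild type and from 4600.5 to 7158 in the mutant, whereas those of IAPLTR1a_I_MM overlap; under scaling by total counts the mutant points move down together.

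The 14 LTR entries, each between 292 and 492 bases long, lay on both sides of the median of all families tested, 8 above it and 6 below. Their median log2 fold change was −0.02, or 0.02 relative to all families tested, and the count above 0 itself depended on the scaling (6 with TMM, 8 with DESeq2, 9 with TMM factors taken outside L1 families and 0 with total counts). None of the 14 passed the Bonferroni threshold with edgeR (8.22% of all families) or with DESeq2 (16.1% of all families); 7 had an unadjusted edgeR p below 0.05, 4 of them higher and 3 lower in the mutant, against 42.5% of all families. With the Benjamini-Hochberg adjustment in edgeR, 6 passed (42.9%), against 31.5% of all families. By unadjusted p the share was 50%, so both shares lay not far above the background. Of the 6, 3 were higher (IAP1-MM_LTR, IAP5-Mm_LTR and IAPLTR4) and 3 lower (IAPLTR2b, IAPLTR3 and RLTR2IAP_MM) relative to the median. The genotypes did not overlap for 8 of the 14 (57.1%, against 45.9% of all families). Of these, 5 were higher (35.7%, against 20.9%) and 3 lower (21.4%, against 25%).

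IAPLTR1_Mm, an LTR of the IAPLTR1 group, had 2027 ± 103 CPM per kb in the wild type and 2261 ± 117 CPM per kb in the mutant (SD, n = 3), the highest mean of the LTR entries in the mutant; in the wild type IAPLTR3 and IAPLTR1a_MM (2045 ± 256 CPM per kb) had higher means, within their spread of it. It measured 761, 700.3 and 769.9 CPM in the wild type and 879, 805 and 804 CPM in the mutant. The mutant libraries all lay above the wild-type ones by a narrow margin. Its log2 fold change was 0.16 (SE 0.07; −0.86 with total counts and −0.15 with the total outside LINE1 families), and its adjusted p in edgeR was 1 by Bonferroni and 0.149 by Benjamini-Hochberg. Without mutant replicate 1 the log2 fold change of IAPLTR1_Mm was 0.10. IAPLTR1a_MM, the LTR entry that shares its name with IAPLTR1a_I_MM, measured 723, 754 and 591 CPM in the wild type and 727, 639 and 652 CPM in the mutant. The groups overlapped almost fully, and the log2 fold change was −0.03 (SE 0.11), or 0.0069 relative to the median of all families.

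RLTR1IAP_MM measured 567, 601 and 505.0 CPM in the wild type and 733, 579 and 703 CPM in the mutant. Mutant replicate 2 lay among the wild-type libraries, and the log2 fold change was 0.27 (SE 0.11; −0.74 with total counts and −0.03 with the total outside LINE1 families). Among the LTR entries with IAPLTR2 or RLTR2 in their names, IAPLTR2b had a log2 fold change of −0.48 (SE 0.09) and RLTR2IAP_MM one of −0.30 (SE 0.07), both below the median of all families, and their genotypes did not overlap. For these 2 the Bonferroni-adjusted p in edgeR was 0.182 and 0.695. The other entries so named lay close to the median of all families, IAPLTR2_Mm at −0.06, IAPLTR2a2_Mm at −0.0073 and RLTR2aIAP_MM at 0.0379 relative to it. The genotypes did not overlap for IAPLTR2_Mm either, with mutant libraries between 572 and 577 CPM and wild-type libraries between 586 and 639 CPM.

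IAPLTR3, the LTR entry of the IAPLTR3 group, measured 639, 963 and 838 CPM in the wild type and 462, 654 and 400.4 CPM in Spocd1ΔSPIN1. Mutant replicate 2 was just above wild-type replicate 1, so the groups overlapped. The log2 fold change was −0.68 (SE 0.21), with a Bonferroni-adjusted p of 1 and a Benjamini-Hochberg-adjusted p of 0.0377 in edgeR. In both IAPLTR3 entries wild-type replicate 1 was the lowest of its group and mutant replicate 2 the highest of its own.

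The LTR entries of the IAP1, IAP5 and IAPLTR4 groups were rare. IAP5-Mm_LTR measured 85.3, 89.0 and 69.99 CPM in the wild type and 132, 155 and 127 CPM in the mutant, with a log2 fold change of 0.78 (SE 0.14; −0.23 with total counts) and a Bonferroni-adjusted p of 0.216 in edgeR. IAP1-MM_LTR measured 78.6, 93.0 and 86.5 CPM in the wild type and 112, 136 and 127 CPM in the mutant, with a log2 fold change of 0.55 (SE 0.13; −0.47 with total counts) and a Bonferroni-adjusted p of 0.939 in edgeR. Neither LTR overlapped between genotypes. IAPLTR4 measured 55.2, 49.5 and 61.7 CPM in the wild type and 99.5, 92.3 and 71.9 CPM in the mutant, with a log2 fold change of 0.65 (SE 0.17; −0.36 with total counts). IAPLTR4_LTR measured 36.8, 25.7 and 28.8 CPM in the wild type and 11.2, 32.2 and 22.9 CPM in the mutant, with a log2 fold change of −0.44 (SE 0.35), or −0.14 without mutant replicate 1 and −0.84 without mutant replicate 2. IAPLTR4 separated the genotypes and IAPLTR4_LTR did not. IAPLTR4_LTR had 7 to 23 counts per library and LTRIAPEY 9 to 22. LTRIAPEY measured 15.1, 23.7 and 19.2 CPM in the wild type and 25.7, 30.8 and 24.5 CPM in the mutant, and its genotypes did not overlap. Its log2 fold change was 0.50 (SE 0.24; −0.51 with total counts), with an unadjusted p of 0.102 and a Bonferroni-adjusted p of 1 in edgeR.

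IAPA_MM and IAP-d, whose names give no class, were 334 and 6542 bases long. IAPA_MM measured 301, 378 and 310.1 CPM in the wild type and 757, 523 and 593 CPM in Spocd1ΔSPIN1. All mutant libraries were above all wild-type libraries, and replicate 1 of the mutant was the highest. The mean was 330 ± 41.9 CPM (SD, n = 3) in the wild type and 625 ± 120.3 CPM in the mutant, and the edgeR log2 fold change was 0.92 (SE 0.15; 95% confidence interval 0.57 to 1.28; −0.08 with total counts), with a Bonferroni-adjusted p of 0.104. With DESeq2 its Bonferroni-adjusted p was 0.00015, past the threshold. IAP-d was also higher relative to the median in every mutant library, with a log2 fold change of 0.51 (SE 0.11; −0.50 with total counts) and a Bonferroni-adjusted p of 0.424 in edgeR.

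The ratio of internal to LTR counts within a library needs no scaling. Summed over the 6 internal and the 14 LTR entries, it was 7.67, 8.32 and 8.83 in the wild type and 8.60, 8.17 and 8.29 in the mutant. The mutant ratios lay inside the wild-type range, and the mean log2 ratio was 3.05 ± 0.10 (SD, n = 3) in the wild type and 3.06 ± 0.04 in the mutant. With IAPLTR3_I and IAPLTR3 left out, a choice made after seeing the data, the ratio was 6.60, 6.62 and 7.29 in the wild type and 8.41, 7.79 and 8.03 in the mutant. Without that pair the groups no longer overlapped, and the difference of the mean log2 ratio was 0.24; no test was run on either sum.

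Within single elements, 6 pairs of an internal and an LTR entry with the same name were compared by an exact two-sided permutation test, for which 3 against 3 libraries cannot give a p below 0.1. IAPLTR3_I had 16.04, 17.7 and 17.6 counts per count of IAPLTR3 in the wild type and 10.8, 10.9 and 11.5 in Spocd1ΔSPIN1. The libraries of each genotype lay close together, and the mutant ratios were all lower. The mean log2 ratio differed by −0.62 (4.09 ± 0.08 against 3.47 ± 0.05, SD, n = 3; exact p = 0.1, adjusted over the pairs 0.2), a difference larger than the spread between replicates that did not pass the test. The replicate spread of IAPLTR3_I and of IAPLTR3 levels was much narrower in their ratio.

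IAP1-MM_I had 11.2, 10.3 and 10.7 counts per count of IAP1-MM_LTR in the wild type and 9.30, 8.42 and 9.83 in the mutant. The mutant ratios were all lower, and the mean log2 ratio differed by −0.22 (exact p = 0.1, adjusted 0.2). IAPLTR4_I per count of IAPLTR4_LTR was higher in all mutant libraries, with a log2 difference of 1.05 (exact p = 0.1, adjusted 0.2), or 0.57 without mutant replicate 1. The same internal entry against IAPLTR4 gave −0.19 (exact p = 0.3), or −0.09 without wild-type replicate 2 and −0.28 without mutant replicate 3. The groups overlapped there, and they overlapped for the IAPLTR1a pair (0.12, exact p = 0.4; 0.06 without wild-type replicate 1, 0.07 without wild-type replicate 2, and 0.23 without wild-type replicate 3, where the groups separate) and the IAP5 pair (0.02, exact p = 1; −0.09 without wild-type replicate 2 and −0.05 without mutant replicate 1).

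**Figure D3:**
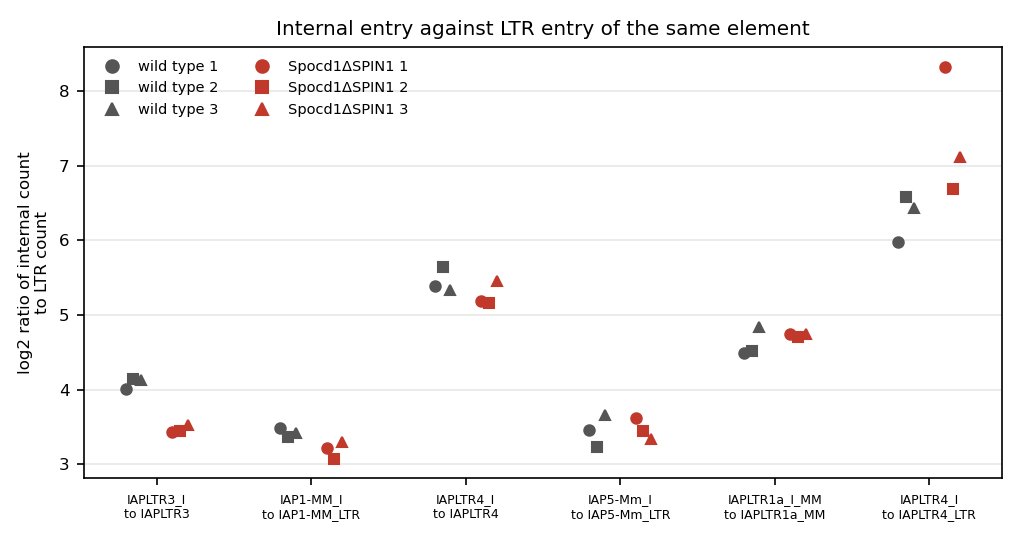
Log2 ratio of the internal to the LTR count within each library for the 6 pairs, with wild type in grey and Spocd1ΔSPIN1 in red, 3 libraries each. For IAPLTR3 the wild-type libraries sit between 4.004 and 4.14 and the mutant libraries between 3.44 and 3.52; the pair with IAPLTR4_LTR spreads widest.

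The composition of the IAP counts also differed between genotypes without any scaling. IAPLTR3_I took 20.6, 28.8 and 26.4% of the counts of the 22 families in the wild type and 8.96, 13.8 and 9.18% in the mutant. IAPEZI took 25.5, 23.0 and 24.2% in the wild type and 32.3, 29.2 and 31.7% in the mutant, and IAPLTR1a_I_MM took 32.8, 29.2 and 30.5% in the wild type and 35.0, 32.3 and 35.1% in the mutant. The genotypes did not overlap for IAPLTR3_I and IAPEZI and overlapped for IAPLTR1a_I_MM. Together with IAPLTR4_I, these families held 84.7 ± 1.07% of the IAP counts in the wild type and 82.3 ± 0.487% in the mutant (SD, n = 3). Since shares add up to a whole, a lower share of one family raises the others.

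A ratio of 2 families is free of that limit. There were 0.807, 1.25 and 1.09 counts of IAPLTR3_I per count of IAPEZI in the wild type and 0.278, 0.473 and 0.29 in the mutant, a ratio added after seeing the data. There were 1.28, 1.27 and 1.26 counts of IAPLTR1a_I_MM per count of IAPEZI in the wild type and 1.08, 1.11 and 1.11 in the mutant. This ratio was not planned beforehand either. Both ratios were lower in every mutant library, and the second varied little among replicates, with a log2 ratio of 0.35 ± 0.01 in the wild type and 0.14 ± 0.02 in the mutant (SD, n = 3). IAPEZI thus lay higher relative to IAPLTR1a_I_MM and to IAPLTR3_I in the mutant than in the wild type; these ratios were not tested.

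**Figure D4:**
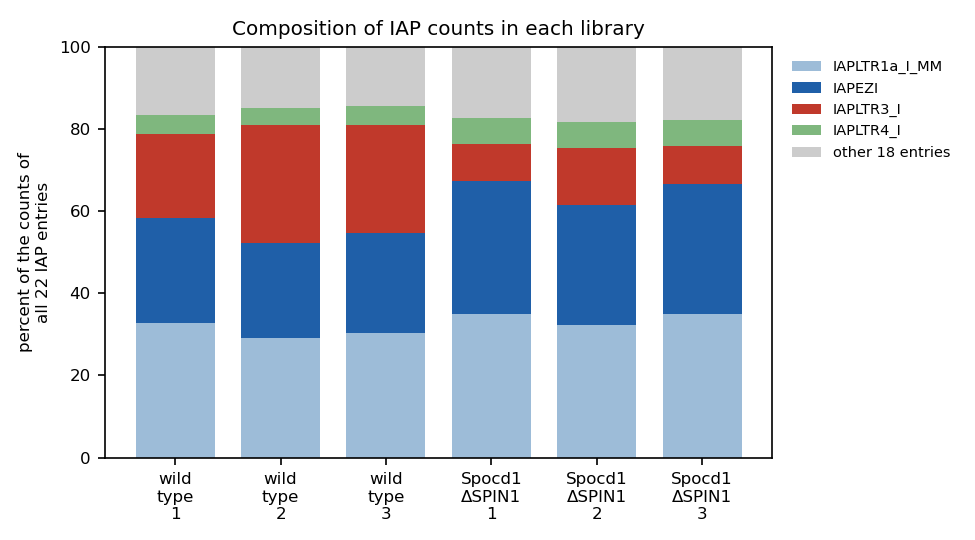
Percent of the counts of the 22 IAP families in each of the 6 libraries, stacked by family on a y axis from 0 to 100. The IAPLTR3_I segment is between 20.6 and 28.8% in the wild type and between 8.96 and 13.8% in Spocd1ΔSPIN1, and the IAPEZI segment is wider in the mutant.

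As a share of all counts in the table, the 22 families made up 7.79 ± 0.56% in the wild type and 3.71 ± 0.399% in the mutant (SD, n = 3). When families with names starting in L1 or Lx (the L1 counts) were set aside, they made up 13.1, 14.1 and 15.3% in the wild type and 10.5, 11.6 and 11.0% in the mutant. The mutant share was lower in every library by both measures, though the mean differed far less once the L1 counts were set aside. Without IAPLTR3_I, a choice made after seeing the data, the share outside L1 was 10.4, 10.02 and 11.3% in the wild type and 9.52, 10.001 and 9.98% in the mutant. The highest mutant share was then below the lowest wild-type share by less than the spread of either group. MMERVK10C remains in that denominator, where it took 2.52, 2.28 and 2.46% in the wild type and 15.5, 10.04 and 11.3% in the mutant. With MMERVK10C also set aside, likewise chosen after seeing the data, the share of the 22 families was 13.4, 14.4 and 15.7% in the wild type and 12.4, 12.9 and 12.39% in the mutant, still lower in every mutant library. Without IAPLTR3_I it was then 10.6, 10.2 and 11.6% in the wild type and 11.3, 11.1 and 11.25% in the mutant. The groups overlapped, so the order of the genotypes for the remaining IAP families depended on the families in the denominator.

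IAPEZI counts were compared within each library with those of 3 families that are among the most increased of their lists: by log2 fold change L1MdTf_I ranked 3 among 46 LINE1 families, and MMERVK10C and IAPEY5_I each ranked 1 among 10. The choice of these families fixes the direction of the ratios, so the permutation tests below cannot decide it. The ratios describe the size of the difference and do not hold for the lists of these families as a whole. There were 1.04, 1.09 and 1.05 counts of IAPEZI per count of L1MdTf_I in the wild type and 0.101, 0.124 and 0.109 in Spocd1ΔSPIN1. IAPEZI was close to L1MdTf_I in every wild-type library and far below it in every mutant library, and the mean log2 ratio differed by −3.25 (exact two-sided permutation p = 0.1, the smallest that 3 against 3 allows; 0.1 after adjustment over 3 ratios). Against MMERVK10C, an internal region of another endogenous retrovirus family, the ratio was 1.32, 1.42 and 1.51 in the wild type and 0.217, 0.338 and 0.308 in the mutant. Against IAPEY5_I, the internal region of an IAPEY group, it was 11.6, 12.5 and 14.3 in the wild type and 2.77, 4.90 and 4.89 in the mutant. Both were lower in every mutant library, with log2 differences of −2.32 and −1.66 (exact p = 0.1 each, adjusted 0.1). In edgeR the 3 comparison families passed the Bonferroni threshold (log2 fold change 3.57 for L1MdTf_I, 2.67 for MMERVK10C and 2.04 for IAPEY5_I; adjusted p = 1.5e-05, 0.00119 and 0.0311).

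**Figure D5:**
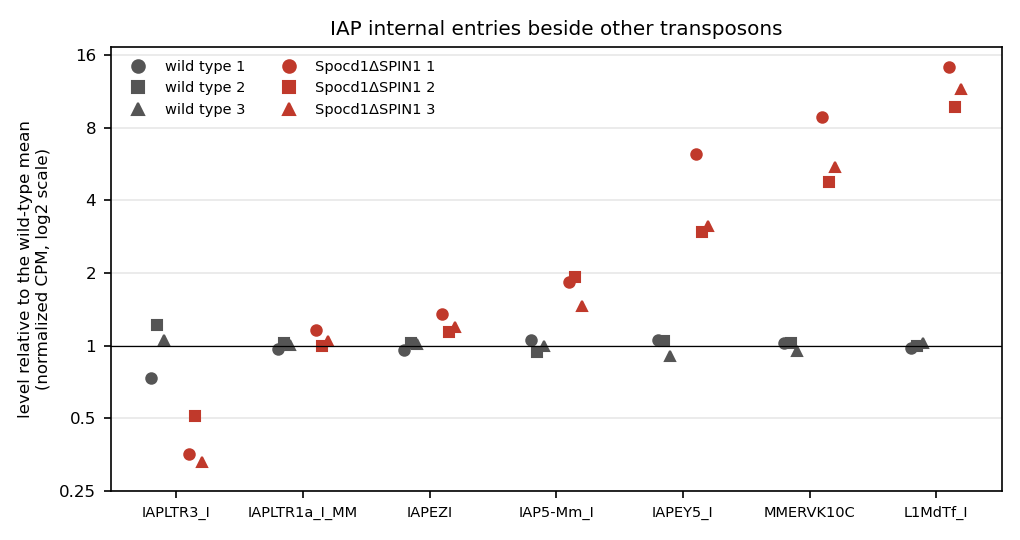
Level of 4 internal IAP entries, IAPEY5_I, MMERVK10C and L1MdTf_I in each of the 6 libraries, as TMM-scaled CPM divided by the wild-type mean, on a log2 y axis. IAPLTR1a_I_MM stays near 1 in both genotypes, IAPEZI lies slightly above 1 in the mutant, IAPLTR3_I lies below 1 in the mutant, and in the mutant IAPEY5_I, MMERVK10C and L1MdTf_I lie above the other entries; with total counts all mutant points move down by about the same factor.

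Across the 6 libraries, the families whose counts kept the most constant ratio to IAPEZI, among 228 with at least 20 counts in every library, were MMERGLN_LTR (SD of the log2 ratio 0.08), ETnERV2 (0.08) and IAPLTR4_I (0.11). For IAPLTR3_I, which was added after its values were seen, they were RLTR30_MM (0.10), RLTR10D2 (0.16) and RLTR9D2 (0.28). RLTR30_MM had 179, 271 and 276 CPM in the wild type and 80.2, 113 and 78.4 CPM in the mutant. Its likeness to IAPLTR3_I is what it was selected for. No IAPLTR3 entry was among the 3 nearest to IAPLTR3_I.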

How the data were processed

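The deposited file holds raw counts per repeat family for 6 libraries, with the length of each sequence, and its values are whole numbers. The submitters' processing notes name cutadapt 1.18, Bowtie2 2.4.2 and mm10; the handling of reads that match more than a single family is not stated, so related IAP entries may share reads. A row that bears the aligner's name is not a family and was left out. Counts were scaled with TMM and compared with the quasi-likelihood test of edgeR 4.0.16 (R 4.3.3) over the 292 families kept by its filter on low counts, with Bonferroni adjustment and a threshold of 0.05; the study used the Wald test of DESeq2 with Bonferroni adjustment, which was run here with version 1.42.0 beside edgeR. Both tools were tested on simulated data. Ratios within libraries were compared by exact two-sided permutation tests (scipy 1.17.1) with Benjamini-Hochberg adjustment. A name with I as a separate part, or ending in EZI, was taken as internal, and otherwise one containing LTR as an LTR. The alternatives were other scalings and filters, DESeq2, Benjamini-Hochberg adjustment, replicate number as a block, class by length, and leaving out each library.

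Named families were those the rule names (IAPEZI, IAPLTR1_Mm, IAPLTR1a_I_MM, RLTR1IAP_MM, IAPA_MM and IAP5-Mm_I), those past the threshold, those in internal and LTR pairs, the 3 with the highest mean level per kb over the 6 libraries, IAPEY5_I, MMERVK10C and L1MdTf_I, and those most like IAPEZI. IAP-d, LTRIAPEY, IAPLTR2b, RLTR2IAP_MM, IAPLTR2_Mm, IAPLTR2a2_Mm, RLTR2aIAP_MM and the families most like IAPLTR3_I fall outside that rule and were named after their values were seen. Members and lists were chosen with earlier results of these data known. Intervals of fold changes come from the edgeR fit; counting error alone was 1.07% of the lowest count of IAPLTR1a_I_MM and 37.8% of that of IAPLTR4_LTR.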

Additional observations from a re-analysis of the deposited data

How the results depend on the processing

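Of 350 values of single families under other settings, 38 changed sign. Of those that kept their sign, 274 kept their side of the threshold, 31 passed it only under the other setting and 7 no longer passed it. Some that changed sign with total counts also crossed the threshold. IAP1-MM_I, IAPLTR1a_I_MM and IAPLTR1_Mm passed it there and not with TMM, and IAP5-Mm_I no longer passed it. The number of IAP families past the threshold, 1 with edgeR, is given here with the share of all families called under the same setting. It was 4 with DESeq2 (3 higher, 1 lower; 16.1%), 2 with DESeq2 size factors in edgeR (9.25%), 3 with TMM factors taken outside L1 families (10.6%) and 3 outside LINE1 and IAP families (10.3%), 2 with no filter (8.36%), 12 with Benjamini-Hochberg adjustment (8 higher, 4 lower; 31.5%), 0 with replicate number as a block (4.79%), 11 with total counts (0 higher, 11 lower; 58.9%), 3 with the total outside LINE1 families (0 higher, 3 lower; 15.8%; chosen after seeing the data) and 0 to 1 with a library left out (0 to 1 higher, 0 lower; 4.49 to 9.43%). Of all 292 families, DESeq2 called 30 higher and 17 lower, and Benjamini-Hochberg adjustment 45 and 47. Total counts gave 4 higher and 168 lower, and the total outside LINE1 families 14 and 32. Same-numbered replicates did not pair: correlations of their deviations were 0.07, 0.04 and −0.08. The block gave IAP5-Mm_I an adjusted p of 0.189 in edgeR, with a log2 fold change of 0.79.

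With total counts the log2 fold change was −0.47 for IAP1-MM_LTR, −0.23 for IAP5-Mm_LTR, −0.0823 for IAPA_MM, −0.50 for IAP-d, −0.54 for IAPLTR4_I, −0.70 for IAP1-MM_I, −0.92 for IAPLTR1a_I_MM, −0.51 for LTRIAPEY, −0.36 for IAPLTR4, −0.86 for IAPLTR1_Mm, −0.74 for RLTR1IAP_MM, −0.21 for IAP5-Mm_I and −0.71 for IAPEZI. By construction it lowers every family alike. With the total outside LINE1 families it was −0.21 for IAPLTR1a_I_MM, −0.15 for IAPLTR1_Mm, −0.0327 for RLTR1IAP_MM and −0.0046 for IAPEZI.

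Families near 0 changed sign more often. RLTR2aIAP_MM was at 0.0323 with DESeq2, 0.0327 with its size factors in edgeR, 0.0038 with no filter, and 0.0694 and 0.0778 with the TMM factors taken outside L1 and outside LINE1 and IAP families. In the same order of those TMM factors, IAPLTR2a2_Mm was at 0.0243 and 0.033 and IAPLTR1a_MM at 0.0374 and 0.0464; IAPLTR1a_MM was at 0.00123 with DESeq2 and 0.00149 with its size factors in edgeR. With a library left out, RLTR2aIAP_MM ranged from −0.0761 to 0.0675, IAPLTR2a2_Mm from −0.12 to 0.0294, IAPLTR1a_MM from −0.13 to 0.0358, IAPLTR4_LTR from −0.84 to −0.14, IAPLTR1a_I_MM from 0.01 to 0.14 and IAPLTR3_I from −1.54 to −1.16; the log2 difference ranged from −0.0865 to 0.13 for the IAP5 pair, from 0.57 to 1.39 for IAPLTR4_I to IAPLTR4_LTR, from −0.28 to −0.09 for IAPLTR4_I to IAPLTR4 and from 0.06 to 0.23 for the IAPLTR1a pair. The cause was not tested.

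The log2 difference of the share of counts was −1.07 over all counts, −0.36 outside L1, −0.39 outside L1 and IAP and −0.20 outside L1 and MMERVK10C, the last chosen after seeing the data. The medians relative to all families tested moved under each alternative by less than their SD between replicates (0.0578 for the members, 0.0409 for the internal and 0.0785 for the LTR entries). The LTR median, 0.02, nevertheless changed sign, to −0.019 without wild-type replicate 3 and −0.00826 without mutant replicate 1; it was 0.0885 without wild-type replicate 2 and 0.00686 without LTRIAPEY. The tested ratios other than that of IAP5 kept their direction. The summed internal to LTR ratio, with no test, differed by between −0.04 and 0.06 (log2) with a library left out and by −0.05 with class by length, against 0.02. Replicates differed by more than counting error in every pair of libraries, and 3 libraries per genotype cannot give an exact p below 0.1.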
